A study of Mus musculus with 6 samples.

Results

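ATP-binding cassette (ABC) transporters of mouse subfamilies A to G were examined on arrays of 1G11 endothelial cells with and without forced expression of SOD3. Members were all non-control spots whose gene symbol in the array annotation begins with *Abca*, *Abcb*, *Abcc*, *Abcd*, *Abce*, *Abcf* or *Abcg* followed by a digit. This rule found 50 genes of the 22398 gene symbols on the array, read by 68 of 55681 probes in 77 of 59305 spots, and all 50 symbols were in the RefSeq gene table. ABC proteins bind and hydrolyse ATP, and most use this energy to carry sterols, phospholipids, drugs, conjugated metabolites or metals across membranes. In endothelium they are best known from the blood-brain barrier, where P-glycoprotein, the multidrug resistance proteins and ABCG2 pump drugs back into the blood, and from large vessels, where ABCA1 and ABCG1 hand cholesterol to lipoproteins. Members of subfamilies E and F have no membrane-spanning part and act on ribosomes.

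1G11 is a microvascular endothelial cell line of mouse strain C57BL/6NCrLBR. The 1G11-mock line does not overexpress SOD3 and the 1G11-SOD3 line does. SOD3 is the extracellular superoxide dismutase, which removes superoxide outside the cell. Before total RNA was taken, both lines spent 6 h in N202.1A-conditioned medium, from cultures of a mammary cancer line, so the comparison is between SOD3 and mock cells that had all met tumor-derived factors. Each line gave 3 biological replicates, hybridized to 6 single-color arrays of 1 slide, with the 1G11-mock arrays in slide row 2 and the 1G11-SOD3 arrays in slide row 1, so cell line and slide row cannot be told apart. Whether either line is a clone is not given in the sources used here.

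The arrays had no saturated spots, and the scanner flagged between 34.2% and 43.8% of the non-control spots of an array as well above background, that is, with a signal distinguishable from it. Spots in the middle of the array, the central block when rows and columns are each divided into 3 nearly equal parts, read dim on the 1G11-mock arrays: over 135 probes printed both there and elsewhere, the median log2 difference, middle minus elsewhere, was -0.83, -1.18 and -2.56 on the 1G11-mock arrays against 0.22, -0.22 and 0.13 on the 1G11-SOD3 arrays. Of the ABC probes, 59 lay outside the middle (45 genes) and 9 lay in it (9 genes), and these are given apart. The *Sod3* probe, itself in the middle, read 4.27 log2 units higher in 1G11-SOD3 (SE 0.70, limma adjusted p = 0.00786). Of 8 endothelial markers, *Kdr* and *Eng* were well above background on every array, whereas *Cdh5*, *Emcn*, *Tek* and *Tie1*, which help define the cell type, were so on none. *Egfl7* was called higher in 1G11-SOD3 (log2 fold change 1.82, adjusted p = 0.0175, limma), whereas *Eng* (-1.05, adjusted p = 0.0835, limma) and *Kdr* (-0.51, adjusted p = 0.295, limma) lay below 1G11-mock without overlap and were not called. The summed normalized intensity of the 8 ran from 19248 to 28151 on the 1G11-mock arrays and from 13755 to 16312 on the 1G11-SOD3 arrays. Of 6 fibroblast and mural markers, 4 were called higher in 1G11-SOD3, and the summed normalized intensity of the 6 ran from 4207 to 7644 on the 1G11-mock arrays and from 29471 to 37830 on the 1G11-SOD3 arrays. *Rgs5*, a mural marker, was not well above background on any array. Of 5 epithelial markers, *Krt14*, read by a probe in the middle, was called higher (28.3-fold, adjusted p = 7.23e-05, limma). *Cdh1*, *Epcam*, *Krt8* and *Krt18* were not called (log2 fold change 0.30, -0.24, -0.22 and -0.20). The sum of the 5, which includes *Krt14*, ran from 1097 to 1130 against 6638 to 12906. Of 6 leukocyte markers, *Itgam*, *Cd14* and *Cd3e* were well above background on every array and 3 were so on none. Among the 6, 0 were called by limma and 0 had an unadjusted p under 0.05, with sums of 21084 to 26769 against 20877 to 26264. The part of these markers in the ABC values was not tested, and with RNA taken from whole cultures, fewer cells of a type and less RNA per cell cannot be told apart.

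The 60-base probes behind the strongest changes are shown in part because several genes were read by more than 1 probe and because *Abcb1a* and *Abcb1b* are close paralogs. Bases 1 to 30 of the probes of both genes, 5′ to 3′, were as follows, at positions 8748075 to 8748134 and 8865925 to 8865984 of chromosome 5 in the array annotation, whose genome build is not given in the sources used here. The longest run that both 60-base probes share was 7 bases.
Abcb1a: actcagacatgggcacctgagttcagatcc
Abcb1b: tccaggctggagcaaagcgctcatgagctg

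*Abcc5* was read by 4 probes on chromosome 16, numbered 1 to 4 here (Agilent A_51_P116421, A_55_P2073935, A_55_P2073940 and A_52_P628117). The array annotation assigns probes 1 and 2 to transcript variant 1 and probes 3 and 4 to transcript variant 2. Bases 31 to 60 are shown, with the letters of the polyadenylation signal AATAAA in capitals, which only probe 4 of these 4 holds.
Abcc5 probe 1: acctcaggttgctgattgctgtgtggtttg
Abcc5 probe 2: gatagagatgaaaaatgccaccttggcatg
Abcc5 probe 3: atcgtgtgcctgatgatcacgcagttggct
Abcc5 probe 4: atttcattttcAATAAAagtacactgcttc

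Probes 1 and 2 of *Abcc8* (Agilent A_55_P2178207 and A_55_P1979814) overlap on chromosome 7, from 53359921 to 53359980 and from 53359908 to 53359967, and share a run of 47 bases, shown in capitals as far as it reaches into bases 1 to 30. They therefore read the same stretch of transcript and are not independent.
Abcc8 probe 1: agcgtgccgccccGCACCTCACTTGCTTGC
Abcc8 probe 2: GCACCTCACTTGCTTGCCTAGTGTTTCGTA

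A probe was called when its fold change passed 2-fold and its limma p-value, adjusted by the Benjamini-Hochberg method over all 55681 probes, was under 0.05. Outside the middle, 7 of 59 ABC probes, belonging to the 5 genes *Abcb1a*, *Abcc5*, *Abca1*, *Abca7* and *Abcc8*, were called lower in 1G11-SOD3, and 0 were called higher. Over all probes outside the middle, 1.18% were called lower and 0.644% were called higher. At an unadjusted p under 0.05, 14 ABC probes outside the middle were lower and 3 were higher, beside 8.02% and 4.69% of all probes there. Of the 7 called probes, 3 read the same gene, *Abcc5*. The median log2 fold change of the 59 probes was -0.09, with 27 higher and 32 lower, beside -0.06 over all 49236 probes outside the middle. Of the 59 probes, 25 were well above background on all 6 arrays and 29 on none. All 1G11-SOD3 arrays lay below all 1G11-mock arrays for 15 of the 59 probes and above them for 7, beside 11.4% and 8.21% of all probes outside the middle.

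**Figure D1:**
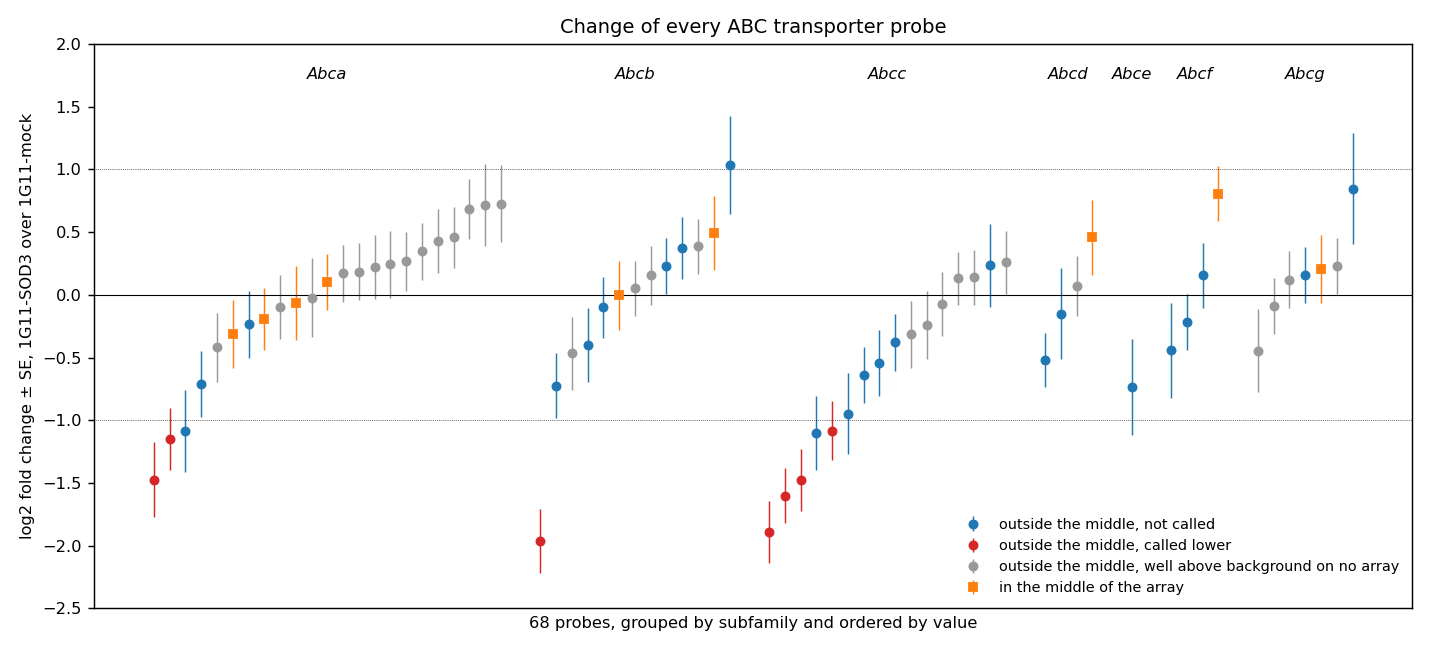
Log2 fold change of 1G11-SOD3 over 1G11-mock with its standard error (vertical axis, 3 arrays per line) for the 68 ABC probes, grouped by subfamily. Red points, the 7 probes called lower, lie between -1.08 and -1.96, no probe was called higher, gray points were well above background on no array, orange squares are middle probes, and dotted lines mark 2-fold.

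Of the drug efflux pumps of subfamily B, *Abcb1a* was called lower. It codes for a P-glycoprotein, the pump that exports many hydrophobic drugs, and had the largest change of all ABC probes in this fit. Its log2 intensity was 10.48, 10.80 and 11.32 on the 1G11-mock arrays and 8.86, 8.84 and 8.99 on the 1G11-SOD3 arrays. The groups did not overlap, and the 3 1G11-SOD3 values lay within a narrow range. The log2 fold change was -1.96 (SE 0.25, adjusted p = 0.00228, limma), which is 3.90-fold lower in 1G11-SOD3. It was called in each of the 6 fits that left out 1 array, with a log2 fold change of -2.17 to -1.76.

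*Abcb1b*, which codes for the other mouse P-glycoprotein, read 11.85, 11.41 and 11.70 in 1G11-mock and 11.24, 11.06 and 10.49 in 1G11-SOD3. These groups did not overlap either, but the log2 fold change of -0.72 (SE 0.26, 95% confidence interval -1.29 to -0.16, adjusted p = 0.206, limma) did not pass the test. The change of *Abcb1a* minus that of *Abcb1b* was -1.24 log2 units (exact permutation test over arrays, two-sided, p = 0.1, and 0.15 adjusted over 3 such comparisons). This p of 0.1 is the smallest that 3 against 3 arrays allow, so no difference could have passed. The test therefore cannot decide whether the changes of *Abcb1a* and *Abcb1b* differ. *Abcb4*, the phosphatidylcholine floppase closest to these genes, was read only by a probe in the middle of the array, with a log2 fold change of 0.49 (SE 0.30, adjusted p = 0.503, limma).

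Subfamily C, the multidrug resistance proteins and their kin, held 4 of the 7 called probes. *Abcc5* codes for MRP5, an exporter of cyclic nucleotides, nucleotide analogs and other organic anions. Its probe 1 was printed 10 times on each array, at separate positions outside the middle. Averaged over the copies, it read 14.67, 15.08 and 14.90 in 1G11-mock and 13.26, 13.23 and 13.37 in 1G11-SOD3, a log2 fold change of -1.60 (SE 0.22, adjusted p = 0.00301, limma). All 1G11-SOD3 values thus lay more than 1 log2 unit below the lowest 1G11-mock value, and 2 of the copies were left out on 1G11-SOD3 replicate 1 because the scanner flagged them as outliers.

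Each of the 10 copies was lower in 1G11-SOD3 with no overlap between the lines, and their log2 fold changes ranged from -1.97 to -0.97 (SD 0.36 over the copies, which are technical repeats of the same probe). The smallest change, -0.97, was at row 114 and column 95, followed by -1.21 at row 340 and column 127 and -1.25 at row 167 and column 110. The copies with -0.97 and -1.25 lie beside the dim middle, and 1G11-mock replicate 3 read 13.78 and 13.91 there. The copy with -1.21 lies away from it, read 13.85 on 1G11-mock replicate 1, and was left out on 1G11-SOD3 replicate 1. The remaining copies read 14.62 to 15.50 on the 1G11-mock arrays.

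The other *Abcc5* probes moved the same way. Probe 2 read 12.59, 12.71 and 12.11 in 1G11-mock against 10.33, 10.81 and 10.59 in 1G11-SOD3 (log2 fold change -1.89, SE 0.25, adjusted p = 0.00238, limma). Probe 3 read 11.43, 11.50 and 11.70 against 10.48, 9.88 and 9.84 (log2 fold change -1.48, SE 0.25, adjusted p = 0.00826, limma). Both pairs of groups were fully separated, and these probes are assigned to different transcript variants. Probe 4, the probe that ends close behind an AATAAA signal, read 9.55, 9.26 and 9.73 against 7.77, 8.71 and 8.75, again without overlap, and its log2 fold change of -1.10 (SE 0.29, adjusted p = 0.0749, limma) did not pass the test. With the replicate number as a block it passed (adjusted p = 0.0449, limma), as it did with scaling to the 75th percentile (-1.19, adjusted p = 0.0295, limma). Probes 1, 2 and 3 were each called in all 6 fits that left out 1 array.

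**Figure D2:**
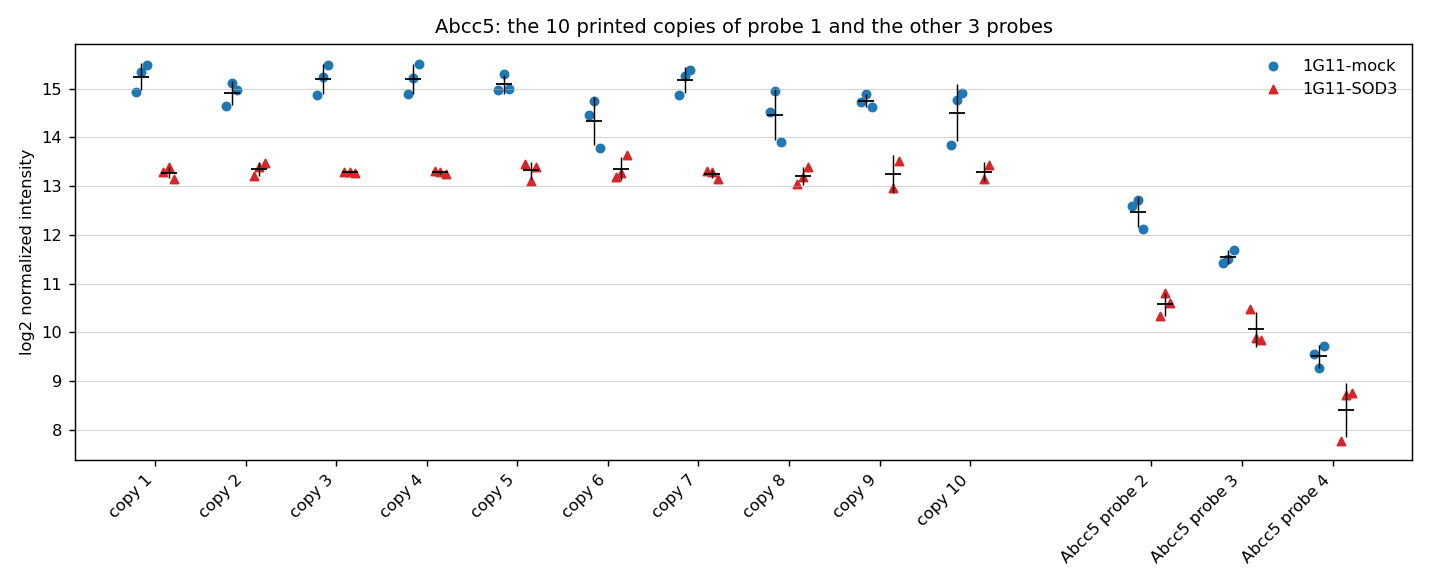
Log2 normalized intensity (vertical axis) of the 10 printed copies of *Abcc5* probe 1 and of the other 3 *Abcc5* probes on 3 1G11-mock arrays (blue circles) and 3 1G11-SOD3 arrays (red triangles), with mean and SD as black bars. In every copy the 1G11-SOD3 values, 12.97 to 13.63, lie below the 1G11-mock values of that copy, and the smallest gap is in copy 6.

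*Abcc4* codes for MRP4, an exporter of cyclic nucleotides and prostaglandins. It read 12.25, 12.24 and 12.15 in 1G11-mock and 10.45, 11.71 and 11.63 in 1G11-SOD3. The groups did not overlap, but 1G11-SOD3 replicate 1 lay apart from the other two, and the log2 fold change of -0.95 (SE 0.32, adjusted p = 0.176, limma) was not called. Without that array it was -0.54. *Abcc1*, which codes for MRP1, a glutathione conjugate exporter, read 12.45, 12.57 and 12.95 against 12.56, 11.97 and 11.82, with overlapping groups and a log2 fold change of -0.54 (SE 0.26, adjusted p = 0.381, limma). The change of *Abcc5* probe 1 minus that of *Abcc1* was -1.06 log2 units (exact permutation test, two-sided, p = 0.1, adjusted 0.15). Minus that of *Abcc4* it was -0.65 (exact permutation test, two-sided, p = 0.3, adjusted 0.3). The smallest p that this test can give with these arrays is 0.1, so neither difference could have passed. The test therefore cannot decide whether these changes differ.

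*Abcc8* codes for SUR1, a regulatory subunit of ATP-sensitive potassium channels rather than a pump. Its probe 2 read 7.82, 8.18 and 8.43 in 1G11-mock and 7.00, 7.15 and 7.03 in 1G11-SOD3, and was called lower (log2 fold change -1.08, SE 0.23, adjusted p = 0.0304, limma). It was well above background on 1 of the 3 1G11-mock arrays and on no 1G11-SOD3 array, so 5 of these 6 intensities were not well above background. It was called in only 1 of the 6 fits that left out 1 array, the one without 1G11-mock replicate 1 (log2 fold change -1.23 to -0.98 over the 6, adjusted p up to 0.116, limma). The overlapping probe 1, well above background on all 6 arrays, read 8.83, 8.98 and 9.25 against 8.53, 8.36 and 8.26 and was not called (log2 fold change -0.64, SE 0.22, adjusted p = 0.197, limma). *Kcnj8* and *Kcnj11*, the pore subunits that pair with SUR proteins, were well above background on no array.

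Of the sterol and lipid transporters of subfamily A, *Abca1* and *Abca7* were called lower. *Abca1* passes cholesterol and phospholipid to apolipoprotein A-I, the first step in forming high-density lipoprotein. It read 11.13, 10.20 and 11.33 in 1G11-mock and 9.55, 9.25 and 9.45 in 1G11-SOD3. The lines did not overlap, although 1G11-mock replicate 2 lay nearer to the 1G11-SOD3 arrays than the other two did. The log2 fold change was -1.47 (SE 0.30, adjusted p = 0.0225, limma), 2.78-fold lower in 1G11-SOD3. The call was lost on leaving out any single array except 1G11-mock replicate 2, with log2 fold changes of -1.84 to -1.27 and an adjusted p of up to 0.0846 (limma).

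*Abca7*, a phospholipid transporter close in sequence to *Abca1*, read 15.41, 15.21 and 15.10 in 1G11-mock and 14.48, 14.01 and 13.79 in 1G11-SOD3. The groups did not overlap, with a log2 fold change of -1.15 (SE 0.25, adjusted p = 0.0290, limma). It lost the call when 1 array was left out in 5 of 6 cases, the exception being 1G11-SOD3 replicate 1 (log2 fold change -1.34 to -1.01 over the 6, adjusted p up to 0.109, limma). Position on the array also ended the call, as given below.

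*Abca2*, a lysosomal transporter involved in sterol handling, was read by 2 probes well above background on every array. Probe 1 read 12.88, 13.90 and 13.65 in 1G11-mock against 11.90, 12.91 and 12.38 in 1G11-SOD3 (log2 fold change -1.09, SE 0.33, adjusted p = 0.120, limma), and the highest 1G11-SOD3 value overlapped with the lowest 1G11-mock value. With the replicate number as a block, probe 1 was called (adjusted p = 0.0196, limma), as it was without 1G11-mock replicate 1 (log2 fold change -1.39, adjusted p = 0.0463, limma). Probe 2 read 10.81, 11.45 and 11.47 against 10.59, 10.79 and 10.21 without overlap and was not called with or without the block (log2 fold change -0.71, SE 0.26, adjusted p = 0.225, limma). *Abca3*, which loads lipid into lamellar bodies, gave -0.24 (SE 0.27, adjusted p = 0.752, limma). *Abcg1*, the partner of *Abca1* in cholesterol efflux, was read only by a probe in the middle that no array showed well above background, so its level could not be compared. The rest of subfamily A was dim: 18 of its 23 probes were well above background on no array.

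**Figure D3:**
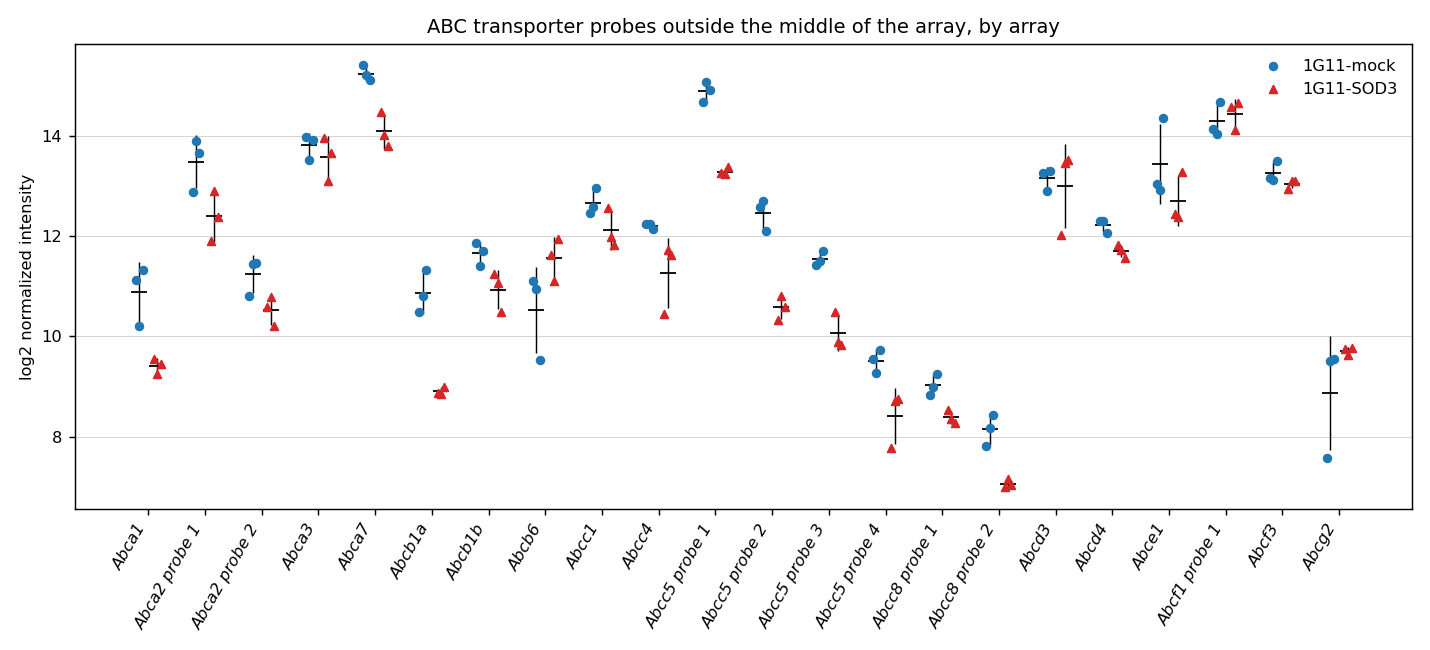
Log2 normalized intensity (vertical axis) of the 22 named ABC probes outside the middle that were well above background on at least 1 array, with 1 point per array for 1G11-mock (blue circles) and 1G11-SOD3 (red triangles) and mean and SD as black bars. The gap between the lines is widest for *Abcb1a* and *Abcc5* probes 1 to 3, and the *Abcg2* point at 7.57 is 1G11-mock replicate 1.

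Neither *Abcg2* nor *Abcb6* was called. *Abcg2*, the breast cancer resistance protein, which exports drugs and urate, read 7.57, 9.50 and 9.55 in 1G11-mock and 9.75, 9.63 and 9.77 in 1G11-SOD3. Its log2 fold change of 0.85 (SE 0.44, adjusted p = 0.425, limma) rested on 1G11-mock replicate 1, and without that array it was 0.20 (adjusted p = 0.741, limma). *Abcb6*, a porphyrin transporter, read 11.10, 10.94 and 9.53 against 11.62, 11.11 and 11.95 (log2 fold change 1.04, SE 0.39, adjusted p = 0.237, limma), with 1G11-mock replicate 3 well below the rest, and without that array it was 0.54 (adjusted p = 0.437, limma). The *Abcb6* spot, at row 257 and column 78, lies beside the dim middle.

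Among the peroxisomal and related proteins of subfamily D, *Abcd3*, an importer of branched-chain fatty acids and bile acid precursors, changed by -0.15 (SE 0.36, adjusted p = 0.898, limma), with 1G11-SOD3 replicate 1 at 12.03 and the other 5 arrays between 12.90 and 13.52. *Abcd4*, needed for lysosomal release of cobalamin, read 12.31, 12.29 and 12.07 against 11.81, 11.72 and 11.56, without overlap and without a call (log2 fold change -0.52, SE 0.22, adjusted p = 0.291, limma).

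For the ribosome-acting proteins, *Abce1*, which splits ribosomes after termination, changed by -0.74 (SE 0.38, 95% confidence interval -1.58 to 0.11, adjusted p = 0.425, limma) with overlapping groups. *Abcf1*, which promotes translation initiation, gave 0.15 (SE 0.26, adjusted p = 0.841, limma) at its probe outside the middle. Its probe in the middle, in the outermost row of that area, read 9.05, 9.02 and 8.79 against 9.80, 9.59 and 9.89 and gave 0.81 (SE 0.22, adjusted p = 0.0817, limma). *Abcf3* changed by -0.22 (SE 0.22, adjusted p = 0.720, limma).

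Of the 9 ABC probes in the middle of the array, 0 were called by limma and 1, the *Abcf1* probe, had an unadjusted p under 0.05 and was higher, as 26.9% of all probes there were (0.715% were lower at that p), whereas 11.6% of all 6155 probes there were called higher and 0.0487% were called lower. Their log2 fold changes ran from -0.32 (*Abca8a*) to 0.81 (*Abcf1*), with a median of 0.10 beside 0.18 over all probes in the middle. *Abcb4* and *Abcf1* were well above background on all 6 arrays, and 6 probes were so on none.

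Position on the array moved several of these values. Subtracting a local median surface from each array, applied to the signal above the offset, lowered the SD among printed copies of bright probes from 0.692 to 0.226 log2 units. Dim spots moved as well, such as the *Abca4* probe in the middle, from 0.10 to -1.25. After this adjustment, *Abcb1a* changed by -1.76 (adjusted p = 0.00710), *Abcc5* probes 1, 2 and 3 by -1.61, -1.81 and -1.45 (adjusted p up to 0.00810) and *Abca1* by -1.20 (adjusted p = 0.0465), all still called by limma. *Abca7* fell to -0.63 (adjusted p = 0.121) and *Abcc8* probe 2 to -0.84 (adjusted p = 0.0835), and neither was called by limma. *Abcb6* went from 1.04 to 0.11 and the *Abcf1* probe in the middle from 0.81 to 0.11. *Abcg2* rose from 0.85 to 1.09, beyond 2-fold, and was not called (adjusted p = 0.165, limma). When the surface was applied to all signal, the same 5 probes stayed called, and 3 probes that were well above background on no array were called in addition: *Abca13* outside the middle (1.04, adjusted p = 0.0278) and *Abca4* (-1.70, adjusted p = 0.0180) and *Abcb9* (-1.37, adjusted p = 0.0240, limma) in it.

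**Figure D4:**
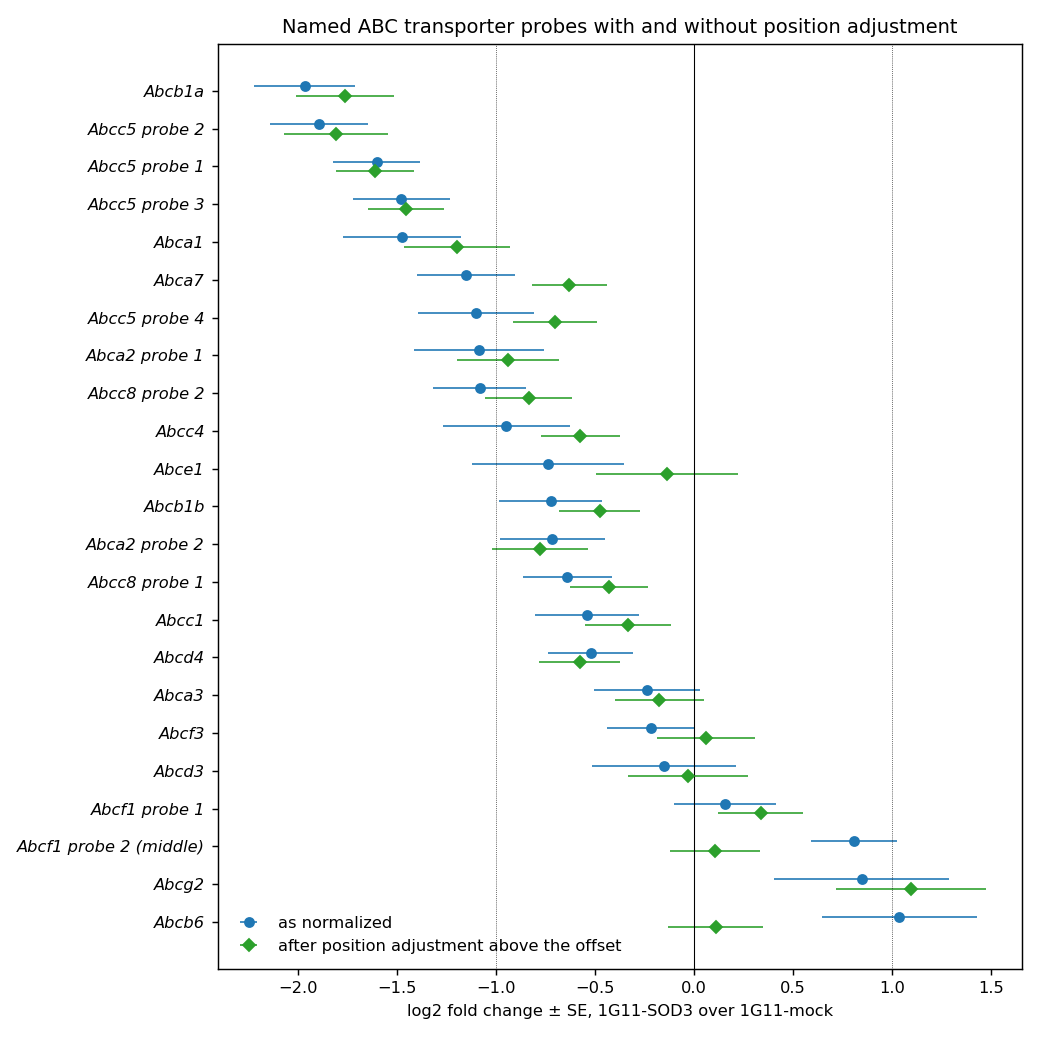
Log2 fold change with its standard error (horizontal axis) of the named ABC probes that were well above background on at least 1 array, as normalized (blue circles) and after the position adjustment of the signal above the offset (green diamonds). *Abcb1a*, *Abcc5* probes 1 to 3 and *Abca1* stay beyond 2-fold, whereas *Abca7* moves from -1.15 to -0.63 and *Abcb6* from 1.04 to 0.11. *Abcg2* moves from 0.85 to 1.09, beyond 2-fold higher, and was not called.

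Genes that act with ABC transporters were followed by 4 lists, of which 0 members passed the test in either direction. These were 3 other ABC proteins (median log2 fold change -0.58), 16 genes of sterol efflux and of the liver X receptors that switch on *Abca1* (-0.13), 6 sensors of foreign compounds and electrophiles (0.16) and 8 partner proteins (-0.24). At an unadjusted limma p under 0.05, 5 of the 33 genes were lower and 3 were higher, beside 7.2% and 7.17% of all probes on the array, and 2 of the latter (*Rxrb* and *Keap1*) lay in the middle of the array. *Nfe2l2*, which codes for NRF2, a factor that switches on detoxification genes, read 14.96, 14.73 and 14.56 in 1G11-mock and 13.11, 13.68 and 14.13 in 1G11-SOD3. The lines did not overlap, and its log2 fold change of -1.11 (SE 0.28, adjusted p = 0.0600, limma) lay just short of the threshold. After the position adjustment above the offset it was called (-1.02, adjusted p = 0.0449, limma). *Nr1h2* and *Nr1h3*, the liver X receptors, gave -0.35 (adjusted p = 0.508) and -0.34 (adjusted p = 0.629, limma).

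The 250 bases before the annotated starts of *Abca1*, *Abcb1a* and *Abcc5*, the genes still called after position adjustment, are shown with *Abcb1b* for comparison, from RefSeq on build GRCm38.p6, 5′ to 3′ on the gene's strand. Capitals mark the GC box GGGCGG, the motif CCAAT, the E-box CACGTG, the sequence TATAAA, the AP-1 type site TGANTCA or the κB type site GGANTTTCC on either strand. The regions are chr4:53159896-53160145 on the minus strand, chr5:8566841-8567090 on the plus strand, chr16:20426395-20426644 on the minus strand and, for *Abcb1b*, chr5:8797897-8798146 on the plus strand.
Abca1: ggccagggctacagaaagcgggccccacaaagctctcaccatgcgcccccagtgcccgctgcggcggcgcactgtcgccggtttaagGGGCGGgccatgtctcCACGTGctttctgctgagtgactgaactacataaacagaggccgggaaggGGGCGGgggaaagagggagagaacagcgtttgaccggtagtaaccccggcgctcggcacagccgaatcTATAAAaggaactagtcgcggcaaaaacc
Abcb1a: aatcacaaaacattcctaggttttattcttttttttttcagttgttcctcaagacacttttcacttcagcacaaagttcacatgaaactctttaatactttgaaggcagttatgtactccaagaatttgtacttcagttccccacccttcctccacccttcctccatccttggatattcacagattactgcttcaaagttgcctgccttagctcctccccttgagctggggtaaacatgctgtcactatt
Abcc5: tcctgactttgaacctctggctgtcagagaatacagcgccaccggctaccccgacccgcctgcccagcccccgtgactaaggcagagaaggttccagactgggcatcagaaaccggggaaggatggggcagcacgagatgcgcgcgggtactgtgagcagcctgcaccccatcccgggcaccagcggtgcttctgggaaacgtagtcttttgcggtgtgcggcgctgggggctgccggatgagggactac
Abcb1b: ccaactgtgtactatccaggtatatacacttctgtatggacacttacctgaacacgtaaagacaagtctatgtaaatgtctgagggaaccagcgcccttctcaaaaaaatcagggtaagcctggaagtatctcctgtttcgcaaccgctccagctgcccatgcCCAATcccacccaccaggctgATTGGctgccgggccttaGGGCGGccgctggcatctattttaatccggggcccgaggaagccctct

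The upstream stretch of *Abca1* holds 2 GC boxes, 1 E-box and 1 TATAAA, the last 29 bases before the start, and that of *Abcb1b* holds 1 GC box and 2 CCAAT boxes. Those of *Abcb1a* and *Abcc5* hold none of the 6 motifs, and they differ in base composition, with 40.4% and 64.0% G and C. Over all 32851 upstream stretches of the same length, GC boxes were in 32.7%, CCAAT in 33.8%, CACGTG in 6.02%, TATAAA in 12.4%, TGANTCA in 6.75% and GGANTTTCC in 1.07%. In the 45 stretches of 38 ABC genes, the counts were 20, 13, 5, 5, 0 and 0.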

How the data were processed

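RNA from 3 1G11-mock and 3 1G11-SOD3 samples was labeled with Cy3 and hybridized to Agilent mouse 8×60K arrays. The authors deposited the scanner files of Feature Extraction 10.7.3.1, whose values are spot intensities on a linear scale, and a normalized table of log2 intensity. Setting that deposited log2 table against the scanner files, it was recomputed within 0.005 from median pixel intensity with the control spots kept, and its median was 7.52 in every array. It served as an alternative. Here, mean intensity was background-corrected (normexp, offset 50), control spots were removed, log2 values were quantile normalized, outlier-flagged spots were dropped and spots of a probe were averaged. Lines were compared with limma 3.58.1 in R 4.3.3, with Benjamini-Hochberg adjustment over 55681 probes, and called past 2-fold with an adjusted p under 0.05. Precision is limited by the number of arrays, and normalization forces all arrays to 1 distribution, so values are relative.

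Same-numbered samples deviated together over 16273 probes (correlations 0.165, 0.103 and 0.157), and the number, which comes from the sample titles, also gives the slide column, so a fit with it as a block was an alternative. Other alternatives were other background corrections, scalings and filters, each array left out, and adjustments for position with a local median of 25 rows by 13 columns, of which that above the offset was chosen after seeing the data. Members and lists were chosen with earlier results of these data known. Probes were named if called with or without position adjustment, if the lines did not overlap at a log2 change of 0.5 or more with signal well above background, if on a list of genes of known role, or if among the 5 genes of highest mean. *Abca8a*, *Abcb4* and the related genes with values were named after their values were seen. The fit was tested on simulated arrays with independent noise, without position or shared replicate effects, so that test does not cover these features. Values of some members, including ones these rules name, are not reported here, although they stay in the counts over all members.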

Additional observations from a re-analysis of the deposited data

How the results depend on the processing

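Across the alternatives run, *Abcb1a* and *Abcc5* probes 1 to 3 kept their direction and their call in all, and *Abca1* in all but 5 of the 6 that left out 1 array. Outside the middle the count of ABC probes called lower was 5 to 13 with all arrays and 4 to 6 with 1 array left out. With only 2 arrays in a line, the 4 found without 1G11-mock replicate 3, 1G11-SOD3 replicate 2 or 1G11-SOD3 replicate 3 were *Abcb1a* and *Abcc5* probes 1 to 3. The largest count, 13, came with processed signal scaled to the 75th percentile, which moved the median log2 fold change of all probes from -0.030 to -0.52 and called 14.6% of probes outside the middle lower, so changes there are relative to that shift. Among the 13, a probe each of *Abca12*, *Abcb5*, *Abcc12*, *Abcd2*, *Abcg3* and *Abcg5* was well above background on no array. With the same processed signal, 6 ABC probes in the middle and 2 related genes were called, all lower and none well above background on any array. Scaling to the 75th percentile alone moved the median to -0.33 and called *Abcc5* probe 4 and 2 related genes. Position adjustment of all signal called 1 ABC probe higher outside the middle and 2 lower in it, none well above background on any array. The replicate block called 9 ABC probes lower, adding *Abcc5* probe 4 and *Abca2* probe 1, and 1 related gene (*Rxrb*), and pairing changed no other call of a named probe. With dim probes left out and with either position adjustment, the 1 related gene called was *Nfe2l2*, lower. Over single arrays left out, 0 to 1 related genes were called. These were *Nfe2l2*, lower, without 1G11-SOD3 replicate 3 and *Rxrb*, higher, without 1G11-mock replicate 1. The cause of these differences was not tested.

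Some changes that were not called turned sign. With processed signal these were *Abca13* (-0.030), *Abca4* (-2.02), *Abcg1* (-1.90), *Abce1* (0.084), *Abca3* (0.12) and *Abcf3* (0.37), and with 75th percentile scaling *Abca4* (-0.31), *Abcg1* (-0.22) and *Abcd3* (0.0087). With position adjustment of all signal they were *Abca4* (-1.70), *Abcg1* (-0.27) and *Abcf3* (0.024), and above the offset *Abca4* (-1.25), *Abcg1* (-0.15) and *Abcf3* (0.061). *Abca4* turned with median pixels (-0.012) and the deposited table (-0.0067). *Abcb9* turned with an offset of 16 (0.014) and control spots kept (0.0013). Leaving out 1 array gave *Abcb9* from -0.20 to 0.28, *Abcg1* from -0.071 to 0.42 and *Abcd3* from -0.42 to 0.33. *Abca7* lost its call under the offset of 16 (-1.15), both scalings (-0.47 and -0.98), the middle left out (-1.04) and both position adjustments (-0.65 and -0.63), and *Abcc8* probe 2 without background correction (-0.65) and with both position adjustments.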

Other observations

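Within the subfamilies, 12 of the 16 probes of subfamily C were lower in 1G11-SOD3 (median log2 fold change -0.46), as were 8 of 19 probes of subfamily A outside the middle (median 0.19, 11 higher), 5 of 11 of subfamily B (0.05), 2 of 3 of subfamily D (-0.15), 2 of 3 of subfamily F (-0.22) and 2 of 6 of subfamily G (0.14). The probe of *Abce1* gave -0.74. Over all 49236 probes outside the middle, 27632 were lower, with a median of -0.06. Most probes of subfamily A are dim, and 4 of the 12 lower values of subfamily C come from *Abcc5*. Others of the 12 come from the overlapping *Abcc8* probes, and from *Abcc12* and *Abcc9* probes that were well above background on no array.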
